A study of Homo sapiens with 7 samples.

Results

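The 36 genes described here encode the SR proteins (14 genes) and the hnRNPs (22 genes), 2 families of splicing factors, among 20043 protein-coding genes of RefSeq. They were chosen by name, as SRSF1 to SRSF12, TRA2A and TRA2B for the SR family, and as the HNRNP genes with SYNCRIP and PTBP1 for the hnRNP family. The study mapped N6-methyladenosine (m6A), a methylated base of mRNA, in HEK-293T, a human embryonic kidney cell line, and asked how a chemical method compares with an antibody method. In m6A-ORL, RNA fragments were treated with NO/O2, then TDO, then the probe BA, captured as biotinylated RNA on streptavidin and released with DTT. In MeRIP, fragments were captured with an anti-m6A antibody. Each method has 2 captured libraries with a deposited peak list, and the 3 input samples of the labels were not analysed here. Replicate 1 of m6A-ORL is labelled total RNA, while its replicate 2 and both MeRIP libraries are labelled polyA RNA, so RNA type and replicate cannot be told apart within this method. The protocol text, shared by all samples, describes oligo(dT) selection, so the total RNA label of that library is itself in doubt. No treatment or genotype differs between the groups, and the labels do not say whether replicates were separate cultures.

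SR proteins carry a domain rich in arginine and serine, bind exonic enhancers and mostly promote the use of nearby splice sites. The hnRNPs coat nascent RNA, often repress splice sites, and also act in mRNA export, stability and translation. Several of them touch the m6A system itself: HNRNPC and HNRNPA2B1 have been proposed as m6A readers, HNRNPC because m6A loosens RNA hairpins and frees its U-rich sites, and the nuclear reader YTHDC1 favours the binding of SRSF3 over that of SRSF10. Many genes of both families adjust their own splicing through conserved exons that lead to decay of the transcript. In most mRNAs m6A is concentrated near the stop codon and in long exons.

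The lists held 46 peaks of these genes among 11022 in m6A-ORL replicate 1, 65 among 7661 in m6A-ORL replicate 2, 51 among 20760 in MeRIP replicate 1 and 48 among 20216 in MeRIP replicate 2. Of these 210 peaks, 63 belonged to SR genes and 147 to hnRNP genes. A list says where a peak was called. It holds neither expression nor read depth, so a gene without a peak may lack m6A or may have been too weakly covered, and these cannot be told apart.

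The sequences below are start sites from RefSeq (GRCh38.p14, the build hg38), shown because peaks at the 5′ end were common in these genes. Lower case is the 30 bases before the annotated start and capitals are the first 30 transcribed bases, on the strand of the gene. The first capital matters because an adenosine in that place can carry N6,2′-O-dimethyladenosine, a cap-adjacent relative of m6A.
HNRNPC, chr14:21269413-21269472, minus strand: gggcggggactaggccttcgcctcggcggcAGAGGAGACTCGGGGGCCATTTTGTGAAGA
HNRNPA2B1, chr7:26200717-26200776, minus strand: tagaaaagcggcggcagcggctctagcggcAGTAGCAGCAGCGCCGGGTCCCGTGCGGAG
HNRNPK, chr9:83980586-83980645, minus strand: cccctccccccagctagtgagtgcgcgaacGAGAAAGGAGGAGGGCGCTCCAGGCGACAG
TRA2B, chr3:185937985-185938044, minus strand: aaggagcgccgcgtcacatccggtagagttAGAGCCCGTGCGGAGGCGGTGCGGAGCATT
HNRNPAB, chr5:178204503-178204562, plus strand: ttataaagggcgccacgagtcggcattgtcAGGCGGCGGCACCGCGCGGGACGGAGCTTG
HNRNPM, chr19:8444945-8445004, plus strand: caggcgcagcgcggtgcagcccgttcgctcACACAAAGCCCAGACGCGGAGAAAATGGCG
HNRNPC and HNRNPA2B1 are the proposed readers. HNRNPK and TRA2B had peaks by m6A-ORL alone, and the starts of HNRNPAB and HNRNPM were covered by a peak in all 4 lists.

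Peaks were found in nearly all members. A peak in both m6A-ORL lists was found for 25 of 36 members (69.4%, exact 95% interval 51.9 to 83.7), against 12% of all protein-coding genes and 23.8% of those with a peak in any list. A peak in both MeRIP lists was likewise found for 25 of 36 (69.4%), against 36.7% of all protein-coding genes and 72.7% of those with a peak in any list. By m6A-ORL the members thus stood well above both backgrounds, while by MeRIP they were close to the share among genes with any peak. These counts ask for a peak anywhere in the gene in each list, not for the same site. No m6A-ORL peak overlapped a peak of the other m6A-ORL replicate in SRSF1, SRSF8, SRSF9, SRSF11, TRA2A, HNRNPA2B1, HNRNPA3, HNRNPC, HNRNPU, HNRNPUL1 and SYNCRIP. A peak in all 4 lists was found for 18 members (50%), against 10.0% of all genes and 19.9% of genes with a peak. Asking for 1 list only, 34 members had a peak by m6A-ORL (94.4%), against 35.5% of all genes and 70.2% of genes with a peak in any list. By MeRIP 28 did (77.8%), against 42.0% and 83.1%. In total 35 members had a peak in some list, against 50.5% of all genes, and only SRSF10 had none, against 49.5%.

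The families were counted by method. Among SR genes, 10 of 14 (71.4%, interval 41.9 to 91.6) had a peak in both m6A-ORL lists and 7 of 14 (50%, 23.0 to 77.0) in both MeRIP lists. Among hnRNP genes, 15 of 22 (68.2%, 45.1 to 86.1) had a peak in both m6A-ORL lists and 18 of 22 (81.8%, 59.7 to 94.8) in both MeRIP lists. List by list, 12 and 10 SR genes had a peak in m6A-ORL replicates 1 and 2, against 8 and 7 in MeRIP replicates 1 and 2. For hnRNP genes the counts were 18 and 19 by m6A-ORL, against 19 and 19 by MeRIP. Of all protein-coding genes these lists held 27.6% and 19.9% by m6A-ORL, against 39.7% and 39.0% by MeRIP. Both m6A-ORL lists therefore held more SR genes than either MeRIP list, whereas hnRNP counts were alike in all 4. The intervals of the families overlap for both methods, genes are not replicates, and no test was made because the list was chosen with results known. The lists also differ in length. When each was held to its 7661 best-scored peaks, SR genes numbered 8 by m6A-ORL and 3 by MeRIP, and hnRNP genes 14 by each, against 9.87% of all genes by m6A-ORL and 21.3% by MeRIP. With the better-scored part of each list, up to its median score, SR genes numbered 6 by m6A-ORL and 5 by MeRIP, and hnRNP genes 13 and 14. The shares of all protein-coding genes under this filter were not computed, so these counts cannot be set against a background. The difference between the SR counts of the 2 methods thus varied with how the lists were filtered.

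**Figure D1:**
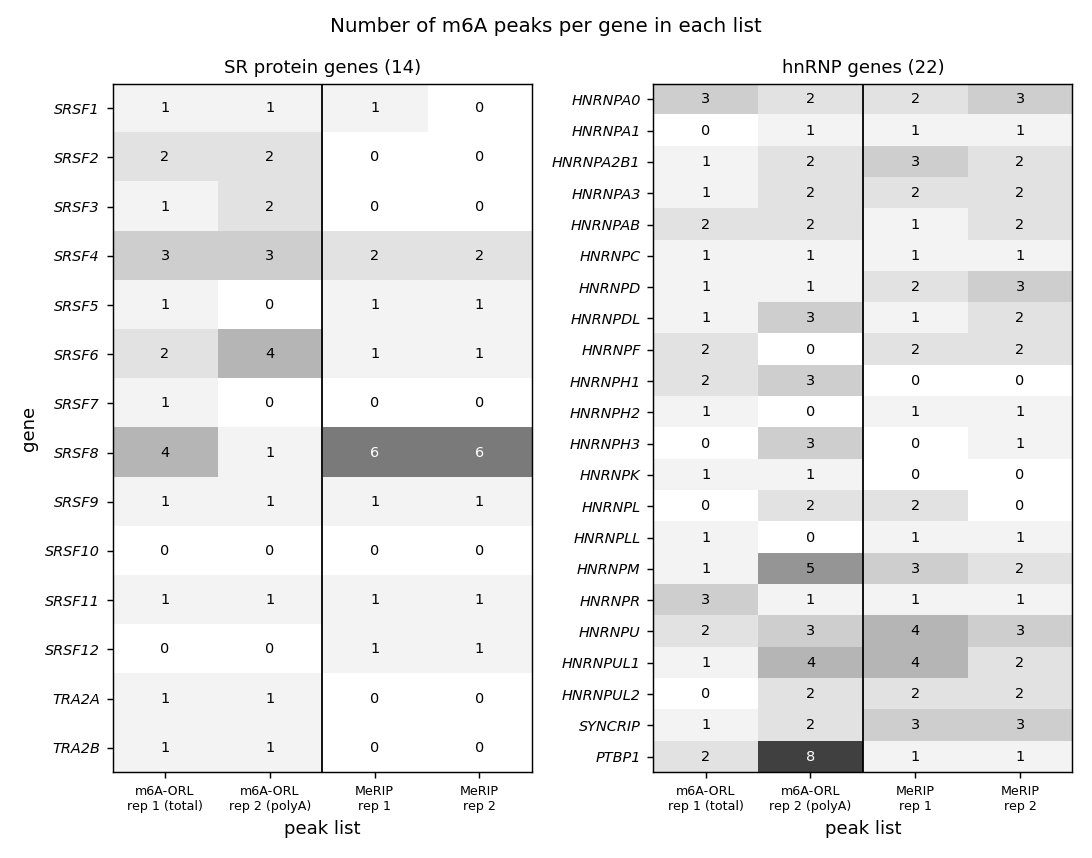
Number of peaks per gene in each list, with m6A-ORL on the left of the black line and MeRIP on the right of it, for the 14 SR genes and the 22 hnRNP genes; darker cells hold more peaks. SRSF8 reached 6 peaks in each MeRIP list and PTBP1 8 in m6A-ORL replicate 2, and SRSF10 was at 0 throughout.

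**Figure D2:**
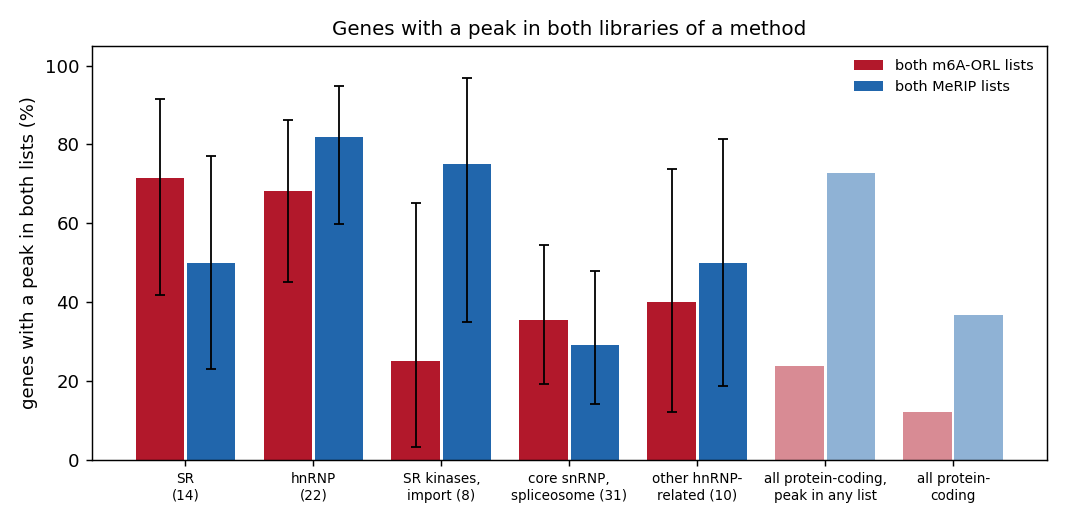
Share of genes (%) with a peak in both m6A-ORL lists (red) and in both MeRIP lists (blue) for 5 gene lists, with exact 95% binomial intervals, and for all protein-coding genes with or without the condition of a peak in any list (pale). By m6A-ORL the SR genes stood at 71.4% and the hnRNP genes at 68.2%, above the pale bars of 23.8% and 12%.

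Among the SR proteins, SRSF8 had the most peaks of any member. It had 4 and 1 peaks in m6A-ORL replicates 1 and 2, against 6 and 6 in MeRIP replicates 1 and 2. Its best-ranked peak lay 31.7% and 78.3% down the m6A-ORL lists, against 11.2% and 9.15% down the MeRIP lists, where 0% is the best score of a list. The best MeRIP peaks, chr11:95067913-95068241 in replicate 1 and chr11:95067943-95068241 in replicate 2, overlapped each other and were partly covered by m6A-ORL peaks (36.5% and 30.1% of their bases). SRSF8 is a retrogene copy of SRSF2, and no source used here says how reads that fit both genes were placed, so the peaks of the 2 genes are uncertain.

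SRSF4, a long SR protein, was listed at its 3′ end by every library. It had 3 and 3 peaks by m6A-ORL, against 2 and 2 by MeRIP, with best ranks 24.9% and 6.06% down the m6A-ORL lists against 12.6% and 17.1% down the MeRIP lists. All but 1 of these 10 peaks had their midpoint at 96.5% of the gene span or beyond. The remaining one, chr1:29181780-29181900 in m6A-ORL replicate 2, covered the 5′ end. At the 3′ end the best MeRIP peaks were 511 nt wide in replicate 1 and 451 nt in replicate 2, and the m6A-ORL replicate 2 peak of 331 nt lay wholly under MeRIP peaks.

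SRSF6, a close relative, was listed in the middle of its gene by every library, and by m6A-ORL also in the first 12.2% of its span. It had 2 and 4 peaks by m6A-ORL, against 1 and 1 by MeRIP. The m6A-ORL midpoints were at 12.2% and 50.4% of the span in replicate 1. In replicate 2 they were at 1.61%, 9.3%, 41.7% and 48%. The peaks at 12.2% and 9.3% overlapped each other and no MeRIP peak. The best ranks were 5.46% and 30% down the m6A-ORL lists, against 59.1% and 68.7% down the MeRIP lists. Both MeRIP peaks, of 120 and 90 nt at about 50% of the span, were fully inside the 240 nt m6A-ORL replicate 1 peak chr20:43460974-43461213. SRSF6 was thus ranked higher within the m6A-ORL lists, the reverse of SRSF8.

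The founding SR protein SRSF1 had 1 peak in each m6A-ORL list, against 1 in MeRIP replicate 1 and 0 in MeRIP replicate 2. The m6A-ORL replicate 1 peak, chr17:58007106-58007346, covered the start site, as did the 61 nt MeRIP peak, which lay 70.6% down its list. SRSF9, another short SR protein, had 1 peak in every list and SRSF11 likewise. SRSF5 had 1 peak in m6A-ORL replicate 1 and 1 in each MeRIP list, 10.7% and 11.6% down those. SRSF7 had a single peak, in m6A-ORL replicate 1, that covered its start.

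HNRNPC, an abundant core component of nuclear hnRNP particles, had exactly 1 peak in each list, but not in the same place. In m6A-ORL replicate 1 the peak chr14:21268655-21269494 covered the start site printed above, spanned a junction and lay 2.76% down the list. The m6A-ORL replicate 2 peak chr14:21210993-21211442 and the MeRIP peaks, both chr14:21211263-21211382, lay at 96.6% and 96.4% of the gene span, about 58000 nt away. The 3′ peak lay 11.8% down the list of m6A-ORL replicate 2, against 62.5% and 55.1% down those of MeRIP replicates 1 and 2. The 3 libraries labelled polyA RNA shared the 3′ peak, and m6A-ORL replicate 1, labelled total RNA, held the 5′ peak instead. Whether the RNA type bears on this was not tested.

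HNRNPA2B1, which binds pre-mRNA and microRNA precursors, had 1 and 2 peaks by m6A-ORL, against 3 and 2 by MeRIP. The m6A-ORL replicate 1 peak, chr7:26200569-26200869, covered the start site and was ranked 123 of its list (1.12%). In m6A-ORL replicate 2 the best peak was ranked 48 (0.627%) and joined 6 blocks over chr7:26192489-26196576, with its midpoint at 65.3% of the span. Both MeRIP lists held a spliced peak within it, at 65.2% of the span and 12.5% and 23.0% down the lists. Each MeRIP list also held a peak whose nearer end was 3 nt upstream of the annotated start, 37.2% and 36.1% down the lists, which m6A-ORL replicate 1 covered in full. Both methods thus listed the 5′ end and the middle of this gene, but no m6A-ORL peak overlapped a peak of the other m6A-ORL replicate. By m6A-ORL the start was covered in replicate 1 alone, and the middle was listed in replicate 2 alone. A further peak of m6A-ORL replicate 2, 120 nt wide, had its nearer end 297 nt from the start. It lay 79.7% down its list and overlapped no MeRIP peak. The best peaks of this gene ranked higher within the m6A-ORL lists.

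**Figure D3:**
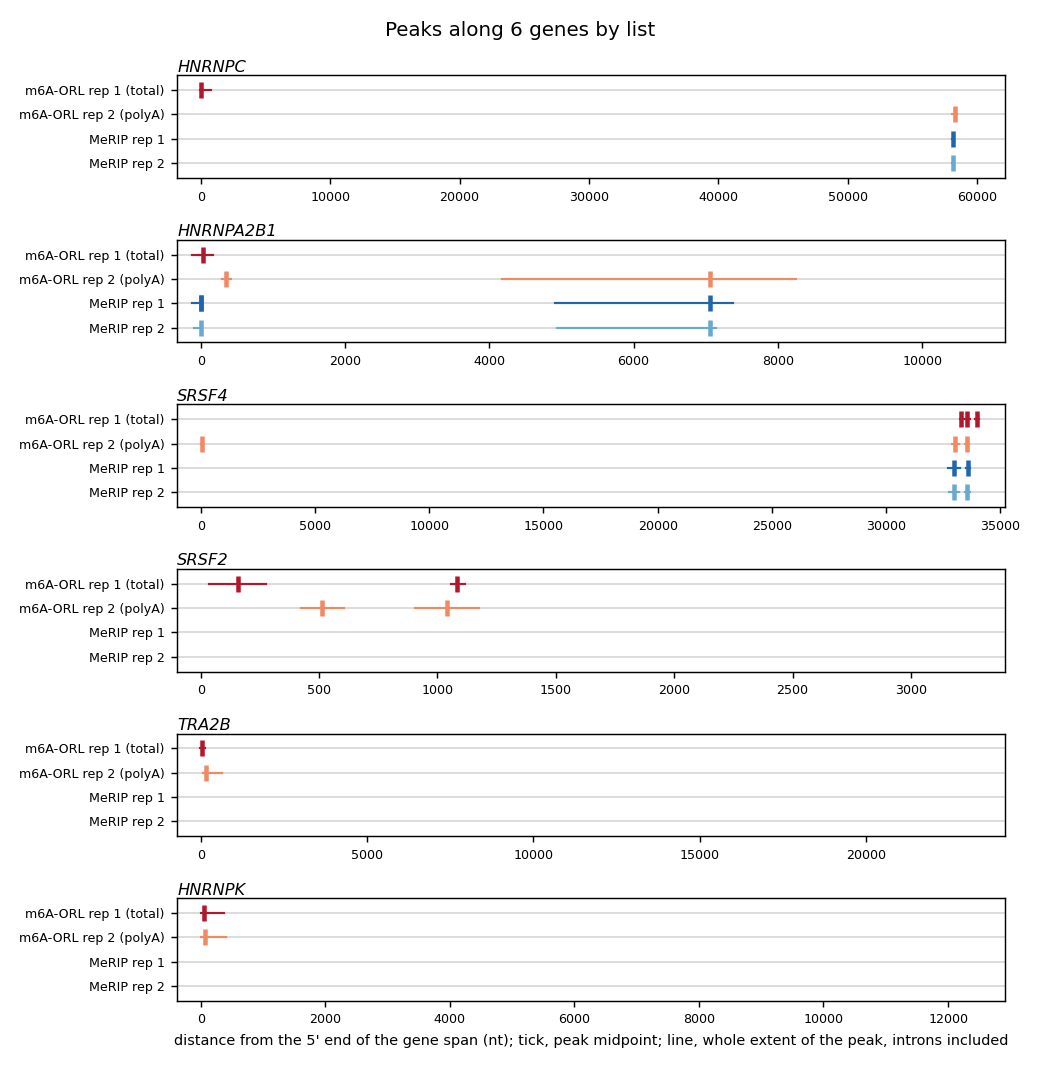
Peaks along HNRNPC, HNRNPA2B1, SRSF4, SRSF2, TRA2B and HNRNPK by list (rows, m6A-ORL above MeRIP); the x axis is the distance from the 5′ end of the gene span in nt, a tick marks the midpoint of a peak and a line its extent with introns. HNRNPC shows a 5′ peak in m6A-ORL replicate 1 and a 3′ peak in the other 3 lists, and the lower 3 genes have no MeRIP peak.

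The other hnRNP genes with the most peaks among those in all 4 lists were HNRNPU, PTBP1, HNRNPM, HNRNPUL1, HNRNPA0 and SYNCRIP. HNRNPU, a nuclear scaffold protein, had 2 and 3 peaks by m6A-ORL, against 4 and 3 by MeRIP. Its best ranks were 4.30% and 0.326% down the m6A-ORL lists, against 4.10% and 3.6% down the MeRIP lists, so it ranked high in all 4. The m6A-ORL replicate 2 peak of 660 nt, chr1:244863061-244864230, ranked 25 of its list. All 7 MeRIP peaks of HNRNPU were overlapped by an m6A-ORL peak, and 4 of its 5 m6A-ORL peaks by a MeRIP peak.

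HNRNPA0, a gene of the A/B type, had the best scores that MeRIP gives. It had 3 and 2 peaks by m6A-ORL, against 2 and 3 by MeRIP. Its best MeRIP peaks, chr5:137753656-137754376 and chr5:137753656-137754106, had a deposited score of 0, which ties them with the best of their lists. The best m6A-ORL ranks were 13.7% and 2.83%. Each of its 5 m6A-ORL peaks was overlapped by MeRIP and each of its 5 MeRIP peaks by m6A-ORL, so the methods marked the same part of the gene, with midpoints in the first 16.7% of its span.

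PTBP1, which binds polypyrimidine tracts and represses exons, had more peaks by m6A-ORL, most of them in replicate 2. It had 2 and 8 peaks by m6A-ORL, against 1 and 1 by MeRIP. Its best ranks were 8.39% and 1.63% down the m6A-ORL lists, against 49.6% and 57.9% down the MeRIP lists. Of its 10 m6A-ORL peaks 1 was overlapped by MeRIP, and both MeRIP peaks, chr19:810981-811130, were overlapped by m6A-ORL (40.7% of their bases). Both m6A-ORL lists held a peak over the annotated start, and neither MeRIP list did.

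HNRNPM, a regulator of exon inclusion, had 1 and 5 peaks by m6A-ORL, against 3 and 2 by MeRIP. All 4 lists held a peak that began at chr19:8444916 and covered the start. In 3 of them, m6A-ORL replicate 2 and both MeRIP lists, this peak was the same 240 nt in 2 blocks, joined over chr19:8444916-8455448. It lay 1.98% down the m6A-ORL replicate 2 list, against 5.53% and 6.89% down the MeRIP lists. The m6A-ORL replicate 1 peak was 180 nt, in 1 block and 47.9% down. In each list 1 peak of HNRNPM had a counterpart on the opposite strand under another ID.

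HNRNPUL1, related to HNRNPU, had 1 and 4 peaks by m6A-ORL, against 4 and 2 by MeRIP. The best ranks were 64.9% and 1.37% by m6A-ORL, against 2.41% and 2.69% by MeRIP. Its 628 nt MeRIP peak over chr19:41264337-41265012 was the same in both MeRIP lists and was covered to 38.2% by m6A-ORL. The m6A-ORL replicate 1 list stood apart here, with 1 peak of 60 nt near the 3′ end.

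SYNCRIP, a cytoplasmic and nuclear hnRNP, had 1 and 2 peaks by m6A-ORL, against 3 and 3 by MeRIP. The best ranks were 22.1% and 2.83% by m6A-ORL, against 16.4% and 17.4% by MeRIP. The m6A-ORL replicate 2 peak of 360 nt near the 5′ end, chr6:85642969-85643792, lay within a MeRIP peak of 390 nt found in both MeRIP lists.

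The other hnRNP genes had 0 to 3 peaks in any list, and several ranked high. HNRNPD (AUF1), which binds AU-rich elements and promotes mRNA decay, had 1 and 1 peaks by m6A-ORL, against 2 and 3 by MeRIP. Its best ranks were 11.2% and 0.483% down the m6A-ORL lists, against 16.5% and 15.2% down the MeRIP lists. Its relative HNRNPDL had 1 and 3 peaks by m6A-ORL, against 1 and 2 by MeRIP, and HNRNPAB had 2 and 2, against 1 and 2. HNRNPA3 had 1 and 2 peaks by m6A-ORL, against 2 and 2 by MeRIP, and HNRNPR, a relative of SYNCRIP, had 3 and 1, against 1 and 1. These 5 genes had a peak in all 4 lists. HNRNPF, which binds G-runs, and HNRNPH2 ranked high by MeRIP (4.26% and 4.09% for HNRNPF, 3.65% and 4.26% for HNRNPH2) although neither had a peak in m6A-ORL replicate 2. HNRNPA1, HNRNPH3, HNRNPL and HNRNPUL2 had none in m6A-ORL replicate 1, and HNRNPF, HNRNPH2 and HNRNPLL had none in m6A-ORL replicate 2.

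A peak in both m6A-ORL lists and in no MeRIP list was found for 6 members (16.7%, interval 6.37 to 32.8), against 1.5% of all protein-coding genes and 2.96% of those with a peak in any list. They were SRSF2, SRSF3, TRA2A, TRA2B, HNRNPH1 and HNRNPK, that is 4 of 14 SR genes and 2 of 22 hnRNP genes. The reverse, a peak in both MeRIP lists and in no m6A-ORL list, held for SRSF12 alone (2.78%), against 11.8% of all genes and 23.4% of those with a peak. With lists of equal length these counts were 10 and 0, against 2.56% and 5.28% of all genes.

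TRA2A and TRA2B, splicing activators that bind purine-rich enhancers, had 1 peak in each m6A-ORL list and 0 in each MeRIP list. For TRA2B both lay at the 5′ end, chr3:185937893-185938043 over the start in replicate 1 and chr3:185937370-185937953 some 61 nt into the gene in replicate 2. They lay 43.3% and 43.6% down their lists. For TRA2A the replicate 1 peak covered the annotated 5′ end (17.3% down the list) and the replicate 2 peak lay at 94.5% of the span (79.7% down).

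SRSF3, the smallest SR protein and a partner of YTHDC1, had 1 and 2 peaks by m6A-ORL and 0 in each MeRIP list. The m6A-ORL replicate 2 peak chr6:36594353-36594473 covered the start (24.8% down the list), and the second lay mid-gene. The replicate 1 peak was 60 nt, began 111 nt into the gene and lay 89.8% down its list, so it was weakly ranked.

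SRSF2, an SR protein that activates exons, had 2 and 2 peaks by m6A-ORL and 0 in each MeRIP list. Its best ranks were 1.67% and 7.36%. The best peak, chr17:76737135-76737374 in replicate 1, had a deposited score of 1.3e-84. All 4 SRSF2 peaks overlapped peaks listed on the opposite strand under the ID of MFSD11, a gene that overlaps SRSF2, so reads of the 2 genes cannot be told apart from these lists. The strand of SRSF2 was itself taken from the peaks of its ID.

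HNRNPK, which binds C-rich RNA, had 1 peak in each m6A-ORL list and 0 in each MeRIP list. The m6A-ORL peaks, chr9:83980244-83980616 and chr9:83980214-83980616, each joined 2 blocks, covered the start printed above and lay 7.68% and 13.0% down their lists. The peaks were 121 and 151 nt wide and overlapped each other. HNRNPH1, which binds G-runs, had 2 and 3 m6A-ORL peaks and 0 in each MeRIP list. The peak chr5:179623064-179623274 was the same 211 nt in both m6A-ORL lists, 127 nt from an annotated start, and the best ranks of the gene were 5.15% and 6.49%. HNRNPH1 has a near-identical relative, HNRNPH2, which had 1 peak in m6A-ORL replicate 1 and 0 in replicate 2, against 1 in each MeRIP list. SRSF12, the only member in the MeRIP lists alone, had a single peak of 61 nt, chr6:89098675-89098735, which lay 95.9% and 77.6% down the MeRIP lists.

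Peaks at the 5′ end made up a larger share in members than in other genes, although by MeRIP the SR genes were close to other genes. Within 300 nt of an annotated 5′ end were 41.3% and 30.8% of member peaks in m6A-ORL replicates 1 and 2, against 15.9% and 17.3% for all other protein-coding genes. In MeRIP replicates 1 and 2 they were 29.4% and 27.1% of member peaks, against 13.7% and 14% for other genes. Pooled over the 2 lists of a method, the share was 35.1% of member peaks by m6A-ORL (interval 26.3 to 44.8), against 16.5% for other genes (15.9 to 17.1). By MeRIP it was 28.3% for members (19.7 to 38.2), against 13.9% for other genes (13.5 to 14.2). By m6A-ORL the families were alike, at 36.1% of SR peaks and 34.7% of hnRNP peaks. By MeRIP the hnRNP genes stood at 33.3% (22.7 to 45.4) and the SR genes at 14.8% (4.19 to 33.7), close to the 13.9% of other genes, and at 7.69% in MeRIP replicate 2. The intervals count a site once for each replicate that lists it and treat the peaks of a gene as independent, so they are too narrow. The window was chosen after the lists had been seen.

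Counted as genes, 18 members (50%) had a 5′ peak in m6A-ORL replicate 1, against 7.14% of all protein-coding genes, and 20 (55.6%) in m6A-ORL replicate 2, against 5.98%. In the MeRIP lists 14 members (38.9%) had one in replicate 1, against 11.4% of all genes, and 11 (30.6%) in replicate 2, also against 11.4%. Among genes with a peak in the list at all, the shares were 60% and 69.0% of members by m6A-ORL, against 25.9% and 30% of genes. By MeRIP they were 51.9% and 42.3% of members, against 28.8% and 29.1% of genes. The 5′ peaks of SR genes were found by m6A-ORL (7 and 6 of 14 genes) more than by MeRIP (3 and 1), while those of hnRNP genes were 11 and 14 of 22 by m6A-ORL, against 11 and 10 by MeRIP.

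The 3′ end was correspondingly less represented. The midpoint lay in the last 10% of the gene span for 18.9% of member peaks by m6A-ORL (interval 12.1 to 27.5), against 32.0% for other genes (31.3 to 32.7). By MeRIP it did for 21.2% of member peaks (13.6 to 30.6), against 37.3% for other genes (36.8 to 37.8). SR genes stood at 16.7% by m6A-ORL (6.37 to 32.8) and 29.6% by MeRIP (13.8 to 50.2). The hnRNP genes stood at 20.0% (11.6 to 30.8) and 18.1% (9.98 to 28.9). In m6A-ORL replicate 2 alone the member share was 20.0% (11.1 to 31.8), an interval that held the 28.4% of other genes. Position was measured along the genomic span with its introns, since no exon annotation was at hand. Gene length and exon number were not matched, and their part in the difference was not tested.

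**Figure D4:**
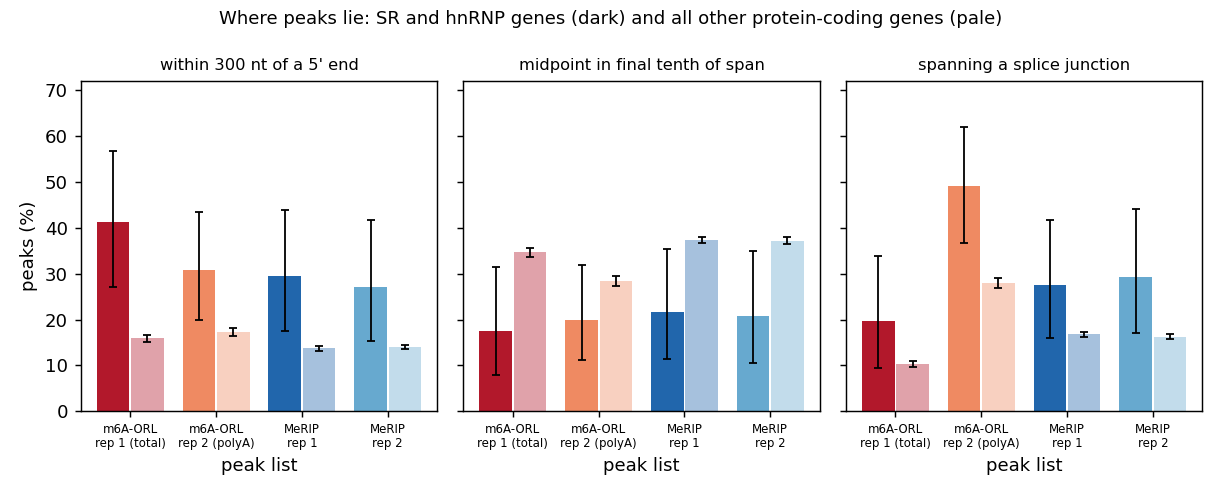
Share of peaks (%) within 300 nt of an annotated 5′ end, with the midpoint in the last 10% of the gene span, and spanning a splice junction, for the 36 members (dark) and all other protein-coding genes (pale) in each list, with exact 95% binomial intervals. Member bars, both families together, are higher than the pale bars on the left and right panels and lower in the middle panel, in all 4 lists; by MeRIP the SR genes alone stood at 14.8% near a 5′ end and 7.41% over a junction.

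Splice junctions were crossed by a larger share of member peaks in each list, although among SR genes not by MeRIP. The share was 19.6% (interval 9.36 to 33.9) and 49.2% (36.6 to 61.9) in m6A-ORL replicates 1 and 2, against 10.3% and 27.9% for other genes. In MeRIP replicates 1 and 2 it was 27.5% (15.9 to 41.7) and 29.2% (17 to 44.1) of member peaks, against 16.8% and 16.2% for other genes. For replicate 1 of each method the interval held the share of other genes. SR genes stood at 27.8% of 36 m6A-ORL peaks (14.2 to 45.2), against 17.9% for other genes. By MeRIP they stood at 7.41% of 27 peaks (0.91 to 24.3), against 16.5%. Both SR intervals held the share of other genes. The SR MeRIP peaks over a junction were the same SRSF8 site, chr11:95068058-95068706, in each replicate. The hnRNP genes stood at 41.3% of 75 m6A-ORL peaks and 36.1% of 72 MeRIP peaks. Member peaks were ranked high as well. Their median place was 30.4% and 14.7% down the m6A-ORL lists, against 51.9% and 49.7% for other genes, and 25.9% and 27.9% down the MeRIP lists, against 48.3% and 48.4%. By m6A-ORL both families ranked above the pooled median of 50.5% for other genes, hnRNP genes at 13.7% and SR genes at 33.2%. By MeRIP the hnRNP genes carried the difference, at 19.8%, while SR genes at 44.9% were close to the 48.3% of other genes. Peak calls and scores move with transcript abundance, which these lists do not give, and its part was not tested.

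The letters at the covered start sites were then described. RefSeq gave 48 start sites for 33 members, and an m6A-ORL peak covered 20 of them. The first base was A at 40.0% of these 20, against 50.1% of 22199 start sites of protein-coding genes, and at 50% of all 48 member start sites. The letters GGAC, a common form of the m6A motif, were in the first 50 transcribed bases of 30% of the 20 covered starts, 25% of the 28 member starts that no m6A-ORL peak covered and 22.2% of the 9 covered by MeRIP, against 19.8% of all starts. Covered and uncovered member starts were thus close. HNRNPAB, HNRNPU and SRSF3 were among those that held it, and HNRNPC, HNRNPA2B1 and TRA2B were not. MeRIP peaks covered 9 member start sites, 33.3% of them with A first. The starts of HNRNPC and HNRNPM printed above held the letters GCCATNTT or, on the other strand, AANATGGC, which belong to the motif of the factor YY1. These were looked for after the sequences had been read, from 50 bases before to 50 after the start. They were found for 6 of 33 members (18.2%: HNRNPC, HNRNPD, HNRNPM, HNRNPUL1, PTBP1 and SRSF1), against 6.12% of genes. HNRNPC and HNRNPM, whose letters had been read before the search, are in this count. The choice of letters thus raised the member share in advance, and no conclusion is drawn from the difference.

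The methods were then compared peak by peak. Of member peaks by m6A-ORL, 42.3% (interval 33.0 to 52.1) shared at least 1 nt on the same strand with a MeRIP peak, against 55.7% for other genes (55.0 to 56.5). In m6A-ORL replicate 1 the share was 43.5% (28.9 to 58.9), against 61.2% for other genes. In replicate 2 it was 41.5% (29.4 to 54.4), an interval that held the 48.7% of other genes. Of member peaks by MeRIP, 74.7% (65.0 to 82.9) shared sequence with an m6A-ORL peak, against 35.6% for other genes (35.1 to 36.1). MeRIP peaks of these genes were thus mostly found again by the chemical method, and m6A-ORL listed further ones that MeRIP did not. The MeRIP share of 74.7% counted overlap with a peak of either m6A-ORL library. It was 56.6% (46.2 to 66.5) when only m6A-ORL replicate 2 was used, against 15.7% for other genes. When only replicate 1 was used it was 35.4% (26 to 45.6), an interval that held the 27.0% of other genes. Of the single libraries, only m6A-ORL replicate 2 thus gave a member share whose interval lay above other genes. By family, 27.8% of SR and 49.3% of hnRNP m6A-ORL peaks were shared with MeRIP (intervals 14.2 to 45.2 and 37.6 to 61.1). The hnRNP interval held the 55.7% of other genes, and the SR interval did not. Among MeRIP peaks 55.6% of SR and 81.9% of hnRNP peaks were shared (35.3 to 74.5 and 71.1 to 90.0). Both pairs of intervals overlap. SRSF8 held 12 of the 27 SR MeRIP peaks, 4 of them shared, and without it 11 of 15 SR peaks (73.3%) were shared. With m6A-ORL replicate 1 alone the order turned, at 37% of SR and 34.7% of hnRNP MeRIP peaks, while with replicate 2 alone it was 29.6% and 66.7%. The MeRIP gap between the families therefore rested on SRSF8 and on m6A-ORL replicate 2.

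Peaks of the same gene by both methods mostly met. Of 27 members with a peak by each method, 25 (92.6%, interval 75.7 to 99.1) had an m6A-ORL peak overlapped by a MeRIP peak. Among 5399 protein-coding genes the share was 80.3%, which lies inside that interval. The exceptions were SRSF11 and HNRNPLL. SRSF11 had its m6A-ORL peaks at the start and at 87.5% of the span, and both MeRIP peaks at 95.2%. HNRNPLL had its m6A-ORL peak at the start and both MeRIP peaks at 52.3% and 52.2% of the span. Between the m6A-ORL replicates 39.1% and 26.2% of member peaks were shared, against 14.9% and 19.2% for other genes. Between MeRIP replicates the shares were 84.3% and 93.8% of member peaks, against 83.9% and 86.6%. These shares were lower between the m6A-ORL replicates, whose RNA labels differ, than between the MeRIP replicates, for members and other genes alike.

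Other splicing genes were counted in the same way, without a test. Of 8 kinases and importers of SR proteins, 2 had a peak in both m6A-ORL lists and 6 in both MeRIP lists. SRPK1, which phosphorylates SR proteins in the cytoplasm, had the most, with 5 and 0 peaks by m6A-ORL against 2 and 1 by MeRIP. CLK2, a nuclear kinase of SR proteins, had 1 and 3 peaks by m6A-ORL against 1 and 2 by MeRIP. Of 31 core snRNP and spliceosome genes, 11 (35.5%) had a peak in both m6A-ORL lists and 9 (29.0%) in both MeRIP lists. U2AF2, which reads the polypyrimidine tract, had 0 and 7 peaks by m6A-ORL against 3 and 3 by MeRIP, and SF1, which binds the branch point, had 2 and 3 against 2 and 3. Of 10 other hnRNP-related genes, 4 had a peak in both m6A-ORL lists and 5 in both MeRIP lists. KHSRP, an mRNA decay factor, had 3 and 9 peaks by m6A-ORL against 1 and 1 by MeRIP. PCBP1, which binds poly(C), had 2 and 2 against 2 and 3. By m6A-ORL the shares of these 3 lists (25%, 35.5% and 40%) lay between the 12% of all genes and those of the families. Their exact 95% intervals (3.19 to 65.1, 19.2 to 54.6 and 12.2 to 73.8) overlap those of both families. The 25% of the kinases and importers was close to the 23.8% of genes with a peak in any list. By MeRIP the shares were 75%, 29.0% and 50%, against 36.7% of all genes and 72.7% of those with a peak in any list. The core snRNP and spliceosome genes thus lay below the share among genes with a peak in any list. Their interval (14.2 to 48.0) held the 36.7% of all genes.

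Some peaks of members cannot be assigned with certainty. In the spans of SRSF1, SRSF2, HNRNPM and HNRNPUL1, 12 peaks were listed on the opposite strand under other IDs, and all 12 overlapped a member peak of the same list. For 5 members another ID on the same strand shared the span, namely SRSF1, SRSF6, HNRNPH2, HNRNPUL2 and SYNCRIP. RefSeq annotates 141 pseudogenes of members, 75 of them of HNRNPA1. As a check of the label, IRS4 and GNAS, which HEK-293 lines express, had peaks in all 4 lists and NEFM in 3. ALB, HBB, PTPRC and MYH7, markers of other cells, had none. COL1A1, a fibroblast collagen gene, had 8 and 1 peaks by m6A-ORL against 0 and 1 by MeRIP, and the ID placed at INS had 1, in m6A-ORL replicate 1.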

How the data were processed

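Peak lists of 4 captured libraries of HEK-293T RNA were used. The deposited lists are in BED format with 12 columns, an Ensembl ID as name and a score that looks like a p-value or q-value (0 to at most 0.0081). The score served only to rank peaks within a list. Per the submitters' processing notes, Trim Galore, STAR and HOMER were used with hg38, with no role or version. Not given in the sources used here are the peak caller, its input, its threshold and whether peaks were called per library. Read depth is unknown. Duplicate lines were removed (2, 1, 4 and 3 in m6A-ORL replicates 1 and 2 and MeRIP replicates 1 and 2).

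Names came from position. Each ID was matched to 1 RefSeq protein-coding gene (GRCh38.p14), with at least 50% of its peak bases inside the gene span widened by 300 nt. Genes of known strand took only IDs on that strand. Genes without a known strand were matched last, to IDs on either strand. This matching named 10126 of 13566 IDs (74.6%), and 35 of 36 members had an ID. Start sites and strands came from RefSeq promoter entries, which 33 members had. For SRSF2, TRA2A and HNRNPA1 the strand was that of the peaks of the matched ID, and the end of the span served as start site. Overlap meant at least 1 nt on the same strand. Intervals are exact (Clopper-Pearson) 95% binomial intervals, which cover counting error only. Name matching and overlap were tested on simulated data. Python 3.11.15, pandas 2.3.3 and scipy 1.17.1 were used.

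The members and lists were chosen with earlier results of these data known, so no test was made over them. Full values go to HNRNPC, HNRNPA2B1, the 10 members with most peaks among those in all 4 lists, and members listed by 1 method only. Other members are given by counts. From each further list at most 4 genes, those with most peaks, could be named. Alternatives were equal list length, the better-scored part of each list, assignment by span, a stricter overlap, the peak end in place of the midpoint, a peak in 1 library, and leaving out each library.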

Additional observations from a re-analysis of the deposited data

Results flagged for a closer look

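Peaks outside the members' own IDs were found in their spans. Whether the lists were called against the input samples is not given. On the opposite strand 12 peaks of other IDs lay in the spans of 4 members (SRSF1, SRSF2, HNRNPM and HNRNPUL1), and 12 of them overlapped a member peak of the same list, 4 of these at SRSF2.

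The annotated pseudogenes of members held 12 peaks summed over the 4 lists, 4 and 1 in m6A-ORL replicates 1 and 2, against 3 and 4 in MeRIP replicates 1 and 2. No source used here says what was done with reads that match several places.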

How the results depend on the processing

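For 14 results 92 alternatives were computed, of which 65 stayed within 1.5 times a count or within the SD between the 2 lists of a share. The remaining 27 moved, and the cause was not tested. With lists of 7661 peaks, SR genes by MeRIP fell to 3, members by m6A-ORL without MeRIP numbered 10 and by MeRIP without m6A-ORL 0. The overlapped shares were then 33.0% of m6A-ORL and 84.5% of MeRIP peaks, with 19.0% of MeRIP peaks in the last 10% of the span and 32.8% near a 5′ end. With the better-scored part of each list, SR genes were 6 by m6A-ORL and 5 by MeRIP, and members by MeRIP without m6A-ORL 0. Shares of all genes were not computed for these counts. The overlapped shares with this filter were 43.9% and 72.9% (m6A-ORL, MeRIP). The last 10% then held 17.1% and 22.9%, and 42.7% and 34.3% lay near a 5′ end. With assignment by span, 77.5% of MeRIP peaks were overlapped and 20.6% were in the last 10%. With at least 50% of a peak covered, the overlapped shares were 31.5% and 61.6%. By the 3′ peak end the last 10% held 23.4% and 23.2%, and within 100 nt of a 5′ end lay 24.2% of MeRIP peaks.

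Leaving out each library in turn gave 29 to 30 members by m6A-ORL and 26 to 27 by MeRIP, which are higher since 1 list then suffices. SR genes numbered 10 to 12 by m6A-ORL and 7 to 8 by MeRIP, and hnRNP genes 18 to 19 and 19. Members by m6A-ORL without MeRIP numbered 6 to 7, and by MeRIP without m6A-ORL 1 to 5 (5 without m6A-ORL replicate 1, 3 without its replicate 2). The overlapped share was 37.8% to 43.5% of m6A-ORL peaks and 35.4% to 75.0% of MeRIP peaks. The last 10% held 17.4% to 20.0% by m6A-ORL and 20.8% to 21.6% by MeRIP, and 30.8% to 41.3% and 27.1% to 29.4% lay near a 5′ end. No paired analysis was possible because the results are counts and shares that come from no test. Between 13 and 75 peaks stand behind each family share, and this number limits the precision.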
